A study of Mus musculus with 16 samples.

Results

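The 6 libraries described here are myeloid sarcomas of mice labelled NPM1cA/SMC3+/-, taken as every tumour library of that genotype among the 16 libraries of the series. They came from mouse 948 with 2 tumours, mouse 2721 with 2 tumours, mouse 1267 with 1 tumour and a sample labelled 1268_1270 with 1 tumour. That label holds 2 animal numbers and may name pooled mice, and it was handled as 1 mouse. All 6 share both alleles: NPM1cA, a mutant nucleophosmin that is held in the cytoplasm, and loss of 1 copy of Smc3. No SMC3 wild-type tumour is compared here. The promoter or Cre behind each allele, the age of the mice and the body site of each tumour could not be taken from the labels. Tumours were dissected from the tissue around them and put directly into Trizol, per the labels' protocols, so a tumour library holds RNA of leukaemia cells and of whatever host tissue came with them. In bulk RNA, fewer cells of a type and less RNA per cell cannot be told apart.

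A myeloid sarcoma is a solid mass of leukaemic myeloid cells outside the marrow. Nucleophosmin is a nucleolar chaperone, and its cytoplasmic mutant is a frequent driver of acute myeloid leukaemia, known for high HOX gene expression. SMC3 is a core subunit of cohesin, the ring that holds sister chromatids together and extrudes chromatin loops. Along the neutrophil lineage, promyelocytes make primary granule proteins such as myeloperoxidase and elastase, and later stages make secondary granule proteins such as lactoferrin and lipocalin 2, so the mix of granule genes is a common readout of maturation.

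The libraries held 12072482 to 33605464 counts. Levels are CPM, counts per 1000000 counts of the library total after TMM scaling, and 17602 genes passed the filter on low counts. Throughout, 6 values in a row are tumour 1 and tumour 2 of mouse 948, then 1267, 1268_1270, and tumour 1 and tumour 2 of mouse 2721. Each value is 1 library, so the tumour pairs of mice 948 and 2721 are the measure of spread. Among them, 2 libraries stood apart. The library labelled 1268_1270 was dominated by fat genes and low in blood cell genes. Tumour 1 of mouse 948 was short of long transcripts: transcripts over 6 kb deviated by a median of -0.67 on the log2 scale from the median tumour, against 0.35 in tumour 2 of the same mouse and 0.32 in 1268_1270, and between -0.07 and 0.02 in the other 3.

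The tumours of mouse 2721 were nearly alike and those of mouse 948 were not. Across tested genes, the Spearman correlation of log2 CPM was 0.981 between the tumours of mouse 2721 and 0.856 between those of mouse 948. Tumour 1 of mouse 948 was closer to 1267 (0.896) and tumour 2 was closer to tumour 1 of mouse 2721 (0.903) than either was to the other. The median absolute log2 difference was 0.21 within mouse 2721 and 1.34 within mouse 948, and 5.6% and 32.1% of tested genes were at least 4-fold apart. Within mouse 948 the sign of the difference went with transcript length and its size hardly did. The median of tumour 1 minus tumour 2 was -1.29 for the 2524 genes over 6 kb and 0.17 for 10029 genes of 1 to 4 kb, while the median absolute difference was 1.44 and 1.29. Correlations of 1268_1270 with the other 5 lay between 0.743 and 0.761. These correlations are descriptions across genes, which share library and depth.

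**Figure D1:**
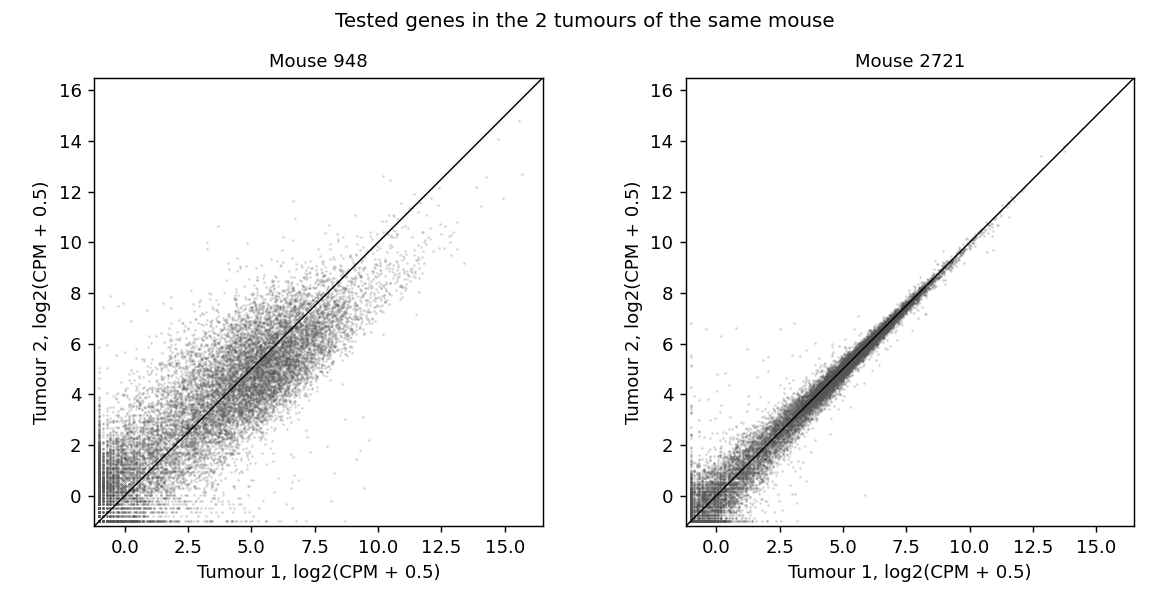
Each point is 1 of the tested genes, with log2(CPM + 0.5) in tumour 1 on the x axis and in tumour 2 on the y axis, for mouse 948 (left) and mouse 2721 (right). The line marks equal levels. Points lie close to the line in mouse 2721, where 5.6% of genes were at least 4-fold apart, and spread widely in mouse 948, where 32.1% were.

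Genes of neutrophils and other myeloid cells were the most abundant RNAs in 5 of the 6 tumours. On a per-kilobase scale (counts divided by transcript length and scaled to the same sum in each library), S100a9 and S100a8, the subunits of calprotectin, had the highest medians over the 6 tumours. S100a9 stood at 103600, 33610, 53190, 1272, 61320 and 65450 on this scale and ranked first or second in all tumours except 1268_1270. Chil3, a chitinase-like protein of myeloid cells, was the highest gene of tumour 2 of mouse 948, at 48890. Elane (neutrophil elastase), Ngp and Camp (granule peptides), Retnlg (a resistin-like neutrophil protein), Ctsg (cathepsin G) and Lcn2 (lipocalin 2) also belonged to the 15 genes with the highest median. The other 6 of the 15 were genes of most cells: Tmsb4x, Eef1a1, Rplp1, Ftl1, Rpl13a and B2m.

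The same neutrophil genes did not rank alike in every tumour. Prtn3 (proteinase 3) stood at 10220 per kilobase in 1267, against 1285 to 5086 in the other tumours outside 1268_1270. Retnlg was at 484 in 1267, against 3994 to 10800 in those tumours. Tumour 2 of mouse 948 had Fth1 (ferritin heavy chain) and Lyz2 (lysozyme) among its leading genes, at 9479 and 9015, while Elane was at 2328.

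The library labelled 1268_1270 had another set of leading genes. Fabp4, the fatty acid carrier of fat cells, was its highest gene, at 41690 per kilobase against 85.5 to 408 in the other 5. Car3 (carbonic anhydrase 3) followed at 33250, Cfd (adipsin) at 21770, Gsn (gelsolin) at 11540 and Adipoq (adiponectin) at 8932. None of the 10 highest genes was shared by all 6 tumours, whereas 4 of the 10 highest were shared by the 5 tumours without 1268_1270. Of the 50 highest genes, 6 were shared by all 6 tumours: Tmsb4x, Rplp1, Eef1a1, Rps21, B2m and Ftl1. Without 1268_1270 the shared number was 28.

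A total of 623 genes reached 100 CPM in each of the 6 tumours, 2.6% of the 23999 symbols in the table, and 957 did so in the 5 tumours without 1268_1270. Of the gene lists, ribosomal proteins contributed 22 of 24 members, and MHC class I presentation contributed 4 of 11. Secondary granule genes contributed 4 of 16 in all 6 tumours and 10 of 16 without 1268_1270. The pan-leukocyte list, genes of all blood cells, contributed 1 of 15 in all 6 and 13 of 15 without 1268_1270. No member of the HOXA, HOXB, stem and progenitor or mitosis lists reached 100 CPM in all 6.

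Among the 1201 genes whose log2 CPM averaged 7 or more, the median SD over the 6 tumours was 0.81 on the log2 scale, and 0.64 without 1268_1270. Ano6, a membrane scramblase, had the smallest SD, 0.10, with 120, 137, 140, 120, 134 and 128 CPM. Coro1b, an actin regulator, had an SD of 0.11 and 233 to 289 CPM. The next were Hspa4, Eif3c, Pbrm1, Eif5, Kif5b and Usp34, with SDs of 0.14 to 0.18. These genes were chosen for their small SD on the CPM scale. For every 1000 pan-leukocyte counts Ano6 had 153 counts in 1268_1270 and 9.10 to 22.6 in the others.

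**Figure D2:**
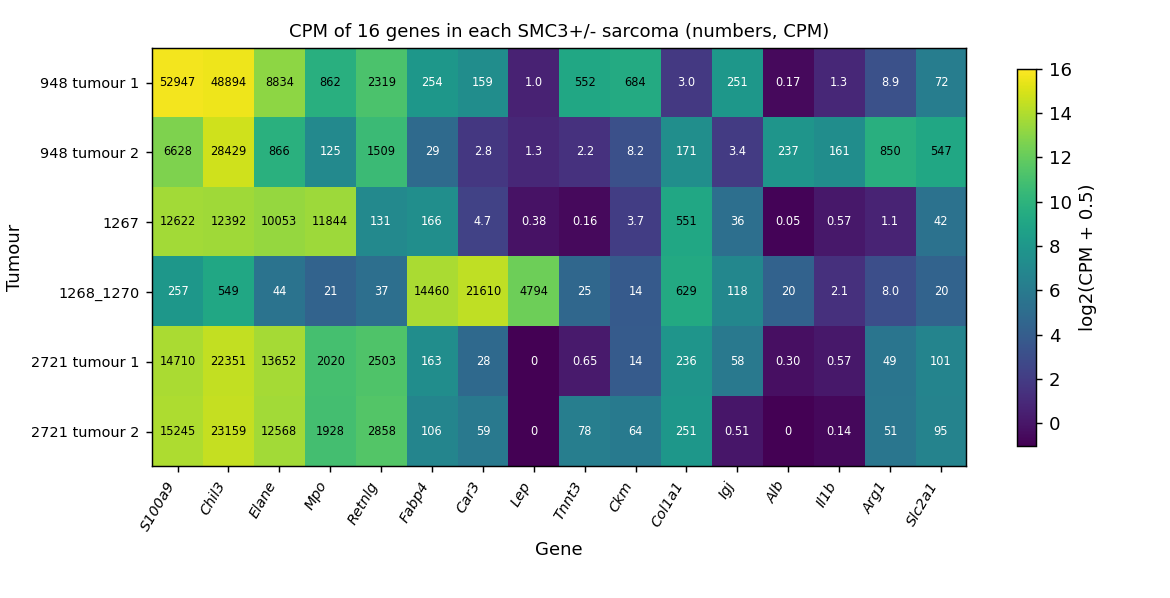
CPM of 16 genes (columns) in each tumour (rows), with the value printed in each cell and the colour giving log2(CPM + 0.5). Fat genes (Fabp4, Car3, Lep) are high in 1268_1270, muscle genes (Tnnt3, Ckm) in tumour 1 of mouse 948 and tumour 2 of mouse 2721, and Alb, Il1b, Arg1 and Slc2a1 in tumour 2 of mouse 948.

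Smc3, the gene deleted on 1 allele, was at 76.5, 107, 205, 60.2, 185 and 185 CPM, lowest in the 2 libraries that stood apart. Smc1a, its partner in the ring, was at 53.3, 111, 159, 95.7, 122 and 120 CPM. Rad21, which closes the ring, and Stag2, its regulatory subunit, spanned 138 to 257 and 135 to 328 CPM. Smc3 counts cannot check the genotype here, since all 6 tumours carry the same label. Of the 15 cohesin genes tested, 0 were called different between the mice, where 0.312% of all tested genes were. The least steady was Cdca5 (sororin, made in dividing cells), at 0.301 CPM in 1268_1270 and 52.1 in 1267.

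Differences between the 4 mice were tested with edgeR's quasi-likelihood F test, with Benjamini-Hochberg adjustment over all genes. It called 55 of 17602 genes (0.312%), all at an adjusted p of 0.0478, and 54 of these 55 were highest in 1268_1270. No gene was called in the contrast of mouse 948 with mouse 2721, in either direction (0%), although 1502 genes had an unadjusted p under 0.05. The smallest adjusted p of that contrast was 0.441. The 55 calls rested on the make-up of the set: without 1267 or without 1268_1270 the count was 0, and without tumour 1 or tumour 2 of mouse 948 it was 10268 or 11071, with 2657 or 4058 genes then called higher and 3060 or 3928 called lower in mouse 948 than in mouse 2721. With 1 tumour of mouse 948 left out, the spread came only from the nearly alike pair of mouse 2721. What follows is mostly given as levels per tumour.

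Fat cell genes set 1268_1270 apart by the widest margin. The 16 genes of the adipocyte list had a mean log2 CPM of 2.68, 0.68, 0.52, 10.35, 2.15 and 1.52, and all 16 were highest in 1268_1270, a tumour in which 28.6% of all tested genes were highest. Lep (leptin, the hormone of fat cells) was at 1.03, 1.35, 0.381, 4794, 0 and 0 CPM. Plin1, the coat protein of lipid droplets, was at 1894 CPM in 1268_1270 and at most 1.89 in the others. Cidec, a lipid droplet fusion factor, was at 4612 CPM against 0.374 to 14.0. The brown fat marker Ucp1 was at 0.258 CPM in 1268_1270 and had no count elsewhere.

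Of the 16 adipocyte genes 3 were called in the test of the mice (18.8%), where 0.312% of all tested genes were. These were Lep, Adrb3 (the beta-3 adrenergic receptor of fat) and Pck1 (glycerol supply for fat storage). Among the other called genes were Npr3 (natriuretic peptide receptor), Cav1 (caveolin of the fat cell membrane), Sfrp5 (a secreted WNT inhibitor) and Prelp (a matrix protein). Npr3 was at 2351 CPM in 1268_1270 and at most 1.72 elsewhere, and Cav1 at 3737 against 9.96 to 37.2. Fat synthesis genes moved with the fat cell genes: the lipid synthesis list had a mean log2 CPM of 8.08 in 1268_1270 and 4.24 to 4.81 in the others. Scd1 (stearoyl-CoA desaturase) was at 41.1, 12.7, 12.96, 11022, 71.1 and 30.8 CPM. Within mouse 948, Cfd was at 623 and Adipoq at 46.9 CPM in tumour 1, against 2.99 and 0 in tumour 2. Over the adipocyte list 11 of 16 genes were higher in tumour 1 and 5 in tumour 2, among them Lipe (hormone-sensitive lipase) at 11.5 against 31.3 CPM, and the median log2 difference was 0.65.

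HOX genes of other clusters were also highest in 1268_1270. HOX genes of the C and D clusters keep the position along the body in connective tissue. Hoxc8 was at 0.172, 2.24, 0.762, 87.4, 0.826 and 0.185 CPM, and Hoxd8 at 36.9 in 1268_1270 against 1.58 to 3.001. Of the 15 tested genes of both clusters 12 were highest in 1268_1270, where 28.6% of all tested genes were highest. Of the 15 genes 0 were called, where 0.312% of all tested genes were.

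Blood cell genes were low in the same library. The pan-leukocyte list had a mean log2 CPM of 8.89, 8.78, 8.14, 5.32, 8.35 and 8.32. Its 15 genes took 0.0787% of the counts in 1268_1270 and 0.679% to 1.01% in the other 5. Ptprc, the CD45 antigen of all white blood cells, was at 300, 687, 249, 54.0, 491 and 533 CPM. Scaling to the pan-leukocyte counts raised all genes of 1268_1270 by 2.84 on the log2 scale relative to the TMM scaling and changed those of the other 5 by -1.23 to -0.15. Under it the tumour with the highest list mean stayed the same in 16 of 54 lists with all 6 tumours, and in 41 of 54 lists among the 5 tumours without 1268_1270.

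Skeletal muscle genes differed between tumours of the same mouse. The 17 fast muscle genes had a mean log2 CPM of 6.09 in tumour 1 and 0.09 in tumour 2 of mouse 948, and -0.34 in tumour 1 and 4.90 in tumour 2 of mouse 2721. In 1267 and 1268_1270 this mean was -0.74 and 2.81. All 17 were higher in tumour 1 of mouse 948 and all 17 were higher in tumour 2 of mouse 2721. Tnnt3, fast troponin T, was at 552, 2.24, 0.163, 25.2, 0.652 and 78.3 CPM. Ckm, muscle creatine kinase, was at 684, 8.23, 3.67, 13.6, 14.5 and 64.0 CPM.

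The muscle content was not the same in tumour 1 of mouse 948 and tumour 2 of mouse 2721. Myh1, the fast myosin IIX, was at 114 CPM in tumour 2 of mouse 2721 and at 3.79 in tumour 1 of mouse 948, although Tnni2 (fast troponin I) was higher in the latter, at 790 against 44.7. The slow fibre gene Csrp3 was at 108 CPM in tumour 1 of mouse 948 and at 4.73 CPM in tumour 2 of mouse 2721. In 1268_1270 Myh1 was at 15.7 and Csrp3 at 8.42 CPM. Myosin transcripts are long, and tumour 1 of mouse 948 was short of long transcripts. Satellite cell genes Pax7 and Myf5 were at 0.224 CPM or less in every tumour.

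Fibroblast matrix genes were highest in 1268_1270 and lowest in tumour 1 of mouse 948. The list of 24 genes had a mean log2 CPM of 3.46, 4.64, 5.88, 7.97, 5.20 and 5.61. Col1a1, the main chain of type I collagen, was at 3.04, 171, 551, 629, 236 and 251 CPM. Col3a1 was at 55.8, 342, 805, 972, 401 and 615 CPM. Tumour 1 of mouse 948 was the lowest for 18 of 24 genes, where 23.5% of all tested genes were lowest. This stood beside its low level of long transcripts (the median member is 4443 bases long). Sparc and Dcn, secreted matrix proteins, were at 6350 and 1464 CPM in 1268_1270 and at most 506 and 177 elsewhere.

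Blood vessel genes were lowest in tumour 2 of mouse 948. The endothelial list had a mean log2 CPM of 2.51, 0.17, 2.90, 5.29, 2.68 and 3.23, and 11 of 16 genes were lowest in that tumour, where 20.2% of all tested genes were lowest. Cdh5 (VE-cadherin) was at 4.65, 0.897, 13.1, 94.3, 11.2 and 15.02 CPM. Cldn5, Tek and Emcn had no count in tumour 2 of mouse 948, which allows up to 0.224 CPM (3 counts, counting error only). The 5 genes not lowest there were Pecam1, Vwf, Kdr, Tie1 and Esam, at 115, 39.9, 4.79, 7.03 and 4.49 CPM. The pericyte and smooth muscle list was likewise low there, at 1.37, and highest in 1268_1270, at 5.70.

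**Figure D3:**
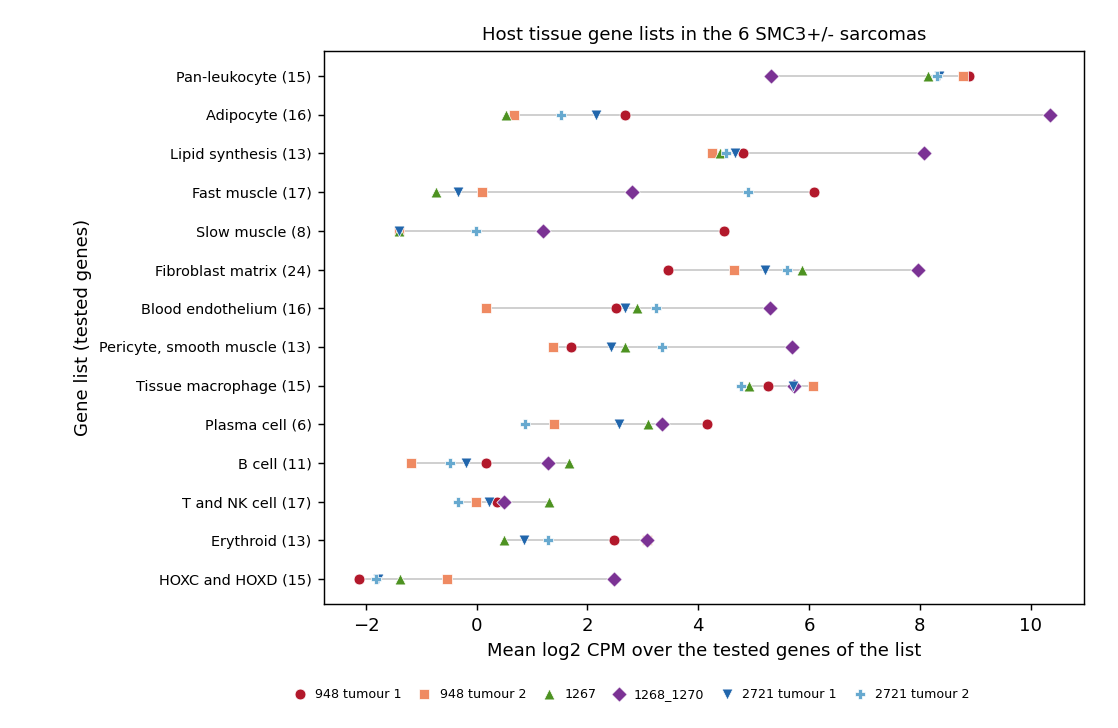
Mean log2 CPM of the tested genes of each host tissue list (rows, number of tested genes in brackets), with 1 symbol per tumour. The adipocyte list reaches 10.35 in 1268_1270, the fast muscle list is high in tumour 1 of mouse 948 (6.09) and tumour 2 of mouse 2721 (4.90), and the pan-leukocyte list is low only in 1268_1270 (5.32).

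Other cell types left smaller traces. Igj, the J chain of secreted antibodies, was at 251, 3.44, 35.8, 118, 58.3 and 0.510 CPM, so that it split both same-mouse pairs. Mzb1, another plasma cell gene, was at 10.4 CPM in tumour 1 of mouse 948 and had no count in tumour 2 of either pair. Xbp1, a secretory factor of many cell types that is also on the plasma cell list, was at 948, 511, 750, 177, 255 and 270 CPM. T cell receptor genes were near 0, with Cd3e at 2.17 CPM or less in every tumour. Cd79a and Pax5 of the B lineage reached 42.0 and 10.97 CPM in 1267. Haemoglobin was present in all 6: Hbb-bs was at 170, 210, 36.1, 417, 20.8 and 26.9 CPM, identical to Hbb-b1 in every tumour, so the 2 symbols cannot be separated.

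Liver transcripts were highest in tumour 2 of mouse 948 and lower in 1268_1270. Alb (albumin) was at 0.172, 237, 0.0544, 19.8, 0.304 and 0 CPM, and Apoa1 was at 32.2 CPM in tumour 2 of mouse 948 and at most 0.988 in the others. Lung (Sftpc) and kidney (Umod) markers had no count in any tumour. Complement genes of tissue macrophages were present in all 6, with C1qa at 241, 88.9, 108, 165, 308 and 143 CPM, and C1qb and C1qc were, like C1qa, highest in tumour 1 of mouse 2721. Cd5l, a macrophage protein, was at 103 CPM in tumour 2 of mouse 948 and at 0.835 to 29.4 in the others.

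On the CPM scale the mean of the primary granule list was highest in tumour 1 of mouse 948 and next in 1267. The primary granule list had a mean log2 CPM of 10.57, 7.66, 9.82, 4.34, 9.27 and 9.26. Mpo (myeloperoxidase) was at 862, 125, 11844, 20.7, 2020 and 1928 CPM. Elane was at 8834, 866, 10053, 44.3, 13652 and 12568 CPM. Thus 1267 had the most Mpo, mouse 2721 the most Elane, and all 10 genes were lower in tumour 2 than in tumour 1 of mouse 948. The median member is 1019 bases long, and tumour 1 of mouse 948 was short of long transcripts. How far these are related was not tested. Scaled to pan-leukocyte counts, the list was highest in 1267 (9.68), with tumour 1 of mouse 948 next (9.34). Ctsg and Ms4a3 (a marker of granulocyte and monocyte progenitors) were highest in tumour 1 of mouse 948, at 7565 and 2894 CPM.

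The secondary granule list varied less among the 5 tumours other than 1268_1270, from 9.28 to 10.69. Ltf (lactoferrin) was at 2123, 1588, 1789, 45.5, 861 and 991 CPM. The late neutrophil genes Retnlg, Mmp8 and Cxcr2 were low in 1267. Retnlg was at 2319, 1509, 131, 37.1, 2503 and 2858 CPM, Mmp8 (neutrophil collagenase) at 502, 658, 15.9, 16.1, 679 and 699, and Cxcr2 (the chemokine receptor of mature neutrophils) at 78.4, 139, 19.2, 6.70, 200 and 220. Other genes of the list were not low there: Camp was at 6881 CPM, and Cebpe was highest there, at 238 against 3.44 to 224. Of the 16 tested genes 2 were highest and 1 was lowest in 1267, where 10.7% and 7.64% of all tested genes were. Fcnb (ficolin B), an early granule gene, was highest in 1267, at 649 CPM against 1.76 to 58.0. The tumour of mouse 1267 thus had more Mpo and Fcnb and less Retnlg, Mmp8 and Cxcr2 than every other tumour outside 1268_1270.

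In 1268_1270 Elane and S100a9 were low even against its own blood cell counts, but granule genes did not all follow. For every 1000 pan-leukocyte counts there were 56.6 Elane counts in 1268_1270, against 95.0 in tumour 2 of mouse 948 and 672 to 1860 in the other 4. S100a9 had 328 counts on that scale, against 728 to 4025. The mean of the primary granule list was 0.98 below the pan-leukocyte mean in 1268_1270 and 1.12 below it in tumour 2 of mouse 948, and 0.92 to 1.68 above it in the other 4 tumours. The pan-leukocyte list does not separate leukaemia cells from white blood cells of the host.

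On the CPM scale the monocyte list was highest in mouse 948. The monocyte list had a mean log2 CPM of 6.87, 7.53, 5.35, 5.45, 6.13 and 5.85. Ly6c2, the surface antigen of inflammatory monocytes, was at 5792, 1273, 151, 43.8, 1375 and 1353 CPM. Ccr2, the receptor that draws monocytes out of marrow, was at 172, 302, 15.9, 54.2, 44.0 and 39.1 CPM, without overlap between mouse 948 and the rest on this scale. For every 1000 pan-leukocyte counts Ccr2 had 13.1 and 33.1 counts in mouse 948, 69.2 in 1268_1270 and 2.56 to 5.998 in the other 3. With that scaling the list was highest in 1268_1270 (8.28), and tumour 1 of mouse 948 (5.65) was below tumour 1 of mouse 2721 (5.74). Of the 17 genes 7 were highest in tumour 1 and 9 in tumour 2 of mouse 948, tumours in which 22.4% and 19.4% of all tested genes were highest. Of the 17 genes 0 were called, where 0.312% of all tested genes were.

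On the CPM scale, cell division genes were highest in 1267 and tumour 1 of mouse 948 and lowest in 1268_1270. The mitosis list had a mean log2 CPM of 6.28, 4.78, 6.77, 1.57, 6.13 and 6.16, and the DNA replication list 6.55, 4.66, 6.64, 3.13, 5.67 and 5.69. Scaled to pan-leukocyte counts, both lists stayed highest in 1267 (6.62 and 6.49) and were lowest in tumour 2 of mouse 948 (4.08 and 3.97), and the replication list was second highest in 1268_1270 (5.95). Cdk1, the kinase that starts mitosis, was at 274, 23.3, 149, 6.19, 99.0 and 93.6 CPM. Mki67, the proliferation antigen, was at 61.0, 235, 559, 14.9, 481 and 532 CPM. Its transcript is long, and it was among the 2 of 18 mitosis genes that were lower in tumour 1 than in tumour 2 of mouse 948. Myb, a progenitor factor, was at 215, 87.8, 319, 5.41, 278 and 314 CPM.

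Tumour 2 of mouse 948 led in inflammatory and hypoxia genes. The inflammatory list had a mean log2 CPM of 1.66, 5.75, 1.66, 0.75, 2.10 and 2.28, and 14 of its 16 genes were highest there. In that tumour 19.4% of all tested genes were highest. Il1b (interleukin 1 beta) was at 1.32, 161, 0.572, 2.10, 0.565 and 0.139 CPM. Cxcl2, a neutrophil attractant, was at 179 CPM against 0.344 to 2.96. Nos2 (inducible nitric oxide synthase) was at 175 CPM against at most 4.21. Arg1 (arginase), which depletes arginine, was at 8.89, 850, 1.12, 7.99, 48.7 and 51.1 CPM.

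The hypoxia list had a mean log2 CPM of 6.75, 8.05, 5.57, 5.69, 6.44 and 6.18. Of its 18 genes 11 were highest in tumour 2 of mouse 948, where 19.4% of all tested genes were highest. Slc2a1 (glucose transporter 1) was at 72.3, 547, 42.4, 20.4, 101 and 95.5 CPM. Egln3, an oxygen sensor, was at 397 CPM against 12.4 to 102, and Vegfa, the vessel growth factor, at 346 CPM against 44.6 to 288. The glycolytic genes Pgk1, Ldha and Eno1 were instead highest in tumour 1, at 642, 1951 and 1698 CPM. These levels stood beside the lowest endothelial list mean of all tumours, and their relation was not tested. Under scaling to pan-leukocyte counts the inflammatory list kept its highest mean in tumour 2 of mouse 948 (5.05), while the hypoxia list was highest in 1268_1270 (8.52 against 7.35).

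Of the 18 genes of the list of matrix proteases and their inhibitors, 7 were highest in tumour 2 of mouse 948 and 7 in 1268_1270. In these tumours 19.4% and 28.6% of all tested genes were highest. Fn1 (fibronectin) was at 98.3, 3181, 151, 442, 192 and 204 CPM. Mmp12, the elastase of macrophages, was at 1199 CPM against 46.1 to 248, and Thbs1 (thrombospondin 1) at 1598 CPM, against 699 in 1268_1270 and 12.3 to 275 in the other 4. Immediate early genes were higher in tumour 2 than in tumour 1 for all 18 members, with Jun at 369 against 15.3 CPM. Cd274, the ligand PD-L1, was at 33.3, 247, 63.5, 13.2, 54.0 and 55.9 CPM.

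Ribosomal protein and respiratory chain genes were highest in tumour 1 of mouse 948. All 24 ribosomal protein genes were highest there, with a list mean of 11.47 against 9.10 in tumour 2 and 7.90 to 9.71 in the rest. Of 19 respiratory chain genes 16 were highest there. In that tumour 22.4% of all tested genes were highest. Members of both lists are short, with median lengths of 1089 and 1623 bases, and the low level of long transcripts in that library goes with them. Their part in each other was not tested. Scaled to pan-leukocyte counts, both lists were highest in 1268_1270 (10.74 and 10.39), and tumour 1 of mouse 948 was highest among the other 5.

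**Figure D4:**
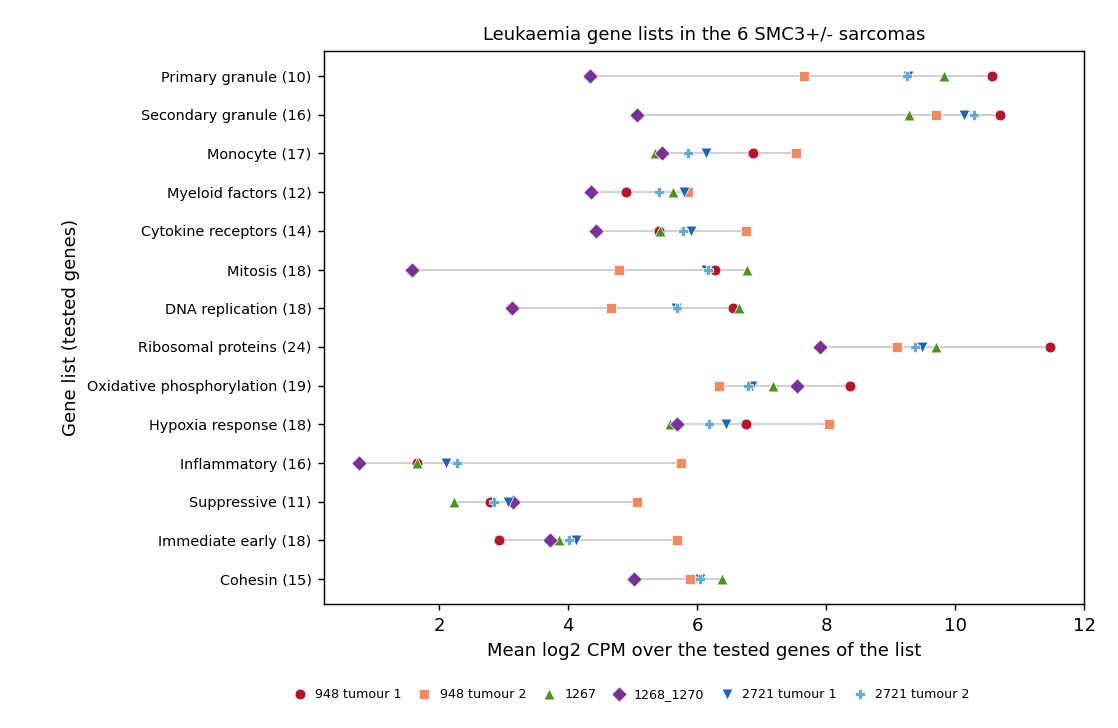
Mean log2 CPM of the tested genes of each leukaemia list (rows, number of tested genes in brackets), with 1 symbol per tumour. Granule and mitosis lists are lowest in 1268_1270 (4.34 for primary granules, 1.57 for mitosis), the inflammatory list is highest in tumour 2 of mouse 948 (5.75), and ribosomal proteins are highest in tumour 1 of mouse 948 (11.47).

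HOX genes were expressed from the A cluster in all tumours, and Hoxa11 was lowest in both tumours of mouse 2721. The tumours of mouse 948 differed from each other, with 8 of 11 HOXA genes higher in tumour 2 and 3 higher in tumour 1. Hoxa9, the HOX gene most tied to myeloid leukaemia, was at 103, 67.7, 159, 9.32, 200 and 176 CPM. Hoxa10 was at 182, 97.01, 179, 12.4, 69.0 and 60.4 CPM. Hoxa11 was at 76.4, 50.8, 77.6, 5.50, 0.304 and 1.44 CPM, so it was near 0 in both tumours of mouse 2721 and near the level of Hoxa10 in no tumour of that mouse. An antisense gene overlaps Hoxa11, and whether counting used strand is not given in the sources used here.

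In the B cluster, Hoxb4 was at 5.16, 20.3, 0.844, 11.9, 31.5 and 30.7 CPM and lowest in 1267. Hoxb13 was at 9.5 CPM in 1267 and at most 0.115 in the other 5. The HOX partner Meis1 was low in all tumours, at 1.55 to 16.8 CPM. Of the 11 HOXA and 10 HOXB genes 0 were called, where 0.312% of all tested genes were.

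Progenitor genes had no common order across the tumours. Flt3, the cytokine receptor of early progenitors, was at 35.0, 34.3, 1.44, 1.80, 3.91 and 5.33 CPM. Mecom (EVI1) was at 13.9 and 14.4 CPM in mouse 948 and 0.565 to 4.81 elsewhere, and Kit, the stem cell factor receptor, at 4.02, 16.2, 48.4, 9.49, 34.4 and 42.8. For every 1000 pan-leukocyte counts Mecom had 1.06 and 1.58 counts in mouse 948 and 6.14 in 1268_1270. Flt3 had 2.66 and 3.77 against 2.30.

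Sets of genes stood apart in 1 mouse. A gene was counted when it had at least 20 CPM in 1 tumour and every tumour of the mouse was at least 4-fold above, or below, every tumour of the other mice on the log2(CPM + 0.5) scale. This rule was set after the values were seen and is a description without a test. It depends on the scaling: fewer genes met it upward in mice 948, 1267 and 2721 with pan-leukocyte scaling, as given below. Of 10173 genes at 20 CPM or more, 37 were set apart upward in mouse 948 (0.364%), 20 in 1267 (0.197%), 25 in mouse 2721 (0.246%) and 988 in 1268_1270 (9.71%). Downward the counts were 6 (0.059%), 28 (0.275%), 5 (0.0491%) and 462 (4.54%). A mouse with 1 tumour meets the rule more easily than one with 2. Without 1268_1270 the upward counts were 63, 22 and 33 for mice 948, 1267 and 2721, and the downward counts were 24, 75 and 13. Without tumour 1 of mouse 948 they were 103, 26 and 28 upward and 48, 45 and 7 downward.

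Among the 37 genes set apart upward in mouse 948, Pcdh11x, a cell adhesion protocadherin of the nervous system, was at 56.4, 45.5, 0.354, 2.71, 0.304 and 0.464 CPM. It was the only gene of the 55 called by the edgeR test (adjusted p = 0.0478) that was not highest in 1268_1270. Car2 (carbonic anhydrase 2) was at 281, 73.7, 2.42, 5.11, 0.957 and 1.07 CPM. Cd28 and Tox, best known from T cells, were at 21.6 and 24.9 CPM and at 26.8 and 40.2 CPM in the tumours of mouse 948, against at most 1.88 and 3.31 in the other 4, while Cd3e was near 0.

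Il1r2, the decoy receptor of interleukin 1, was also set apart in mouse 948, at 1088, 593, 81.7, 11.6, 140 and 141 CPM. Hpgd, which inactivates prostaglandins, was at 3156, 502, 38.7, 65.0, 123 and 115 CPM. Emr1 (F4/80), a surface marker of macrophages, was at 264, 268, 48.4, 62.9, 40.2 and 40.5 CPM, and Tlr2, a receptor for bacterial lipoproteins, at 157 and 197 against 11.6 to 28.7. For every 1000 pan-leukocyte counts Emr1 had 20.1 and 29.4 counts in mouse 948 and 80.2 in 1268_1270. Hpgd had 240 and 55.1 against 82.9. On that scale Il1r2 stayed higher in mouse 948, at 82.7 and 65.2 against 13.2 to 19.4 in the rest. Several paired immunoglobulin-like receptor genes such as Pira1 and Pira11 were set apart too. Their rows are nearly equal, which leaves their separate levels uncertain.

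Among the 25 genes set apart upward in mouse 2721, Mab21l2, a developmental gene of eye and limb, was at 0, 0.150, 0.163, 0, 83.1 and 74.6 CPM. Penk, the precursor of enkephalin opioid peptides, was at 53.4, 3.22, 10.04, 14.1, 921 and 1124 CPM. Gal, the neuropeptide galanin, was at 23.1, 9.57, 16.1, 0.773, 190 and 196 CPM. Both tumours of the mouse had each of these genes at nearly the same level.

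Further genes set apart in mouse 2721 were Prrxl1, a homeobox gene of sensory neurons, at 67.6 and 74.1 CPM against at most 0.972, and Six4, a homeobox transcription factor, at 20.2 and 20.1 CPM against 0.459 to 2.10. The Six4 gap to 1268_1270 depended on the scaling. Six4 had 2.75 and 2.77 counts in mouse 2721 for every 1000 pan-leukocyte counts, 2.36 in 1268_1270 and 0.0349 to 0.338 in the rest. Adpgk, an ADP-dependent glucokinase, was at 1421 and 1479 against 34.5 to 252. Ctsk (cathepsin K), a collagen-degrading protease of osteoclasts, fell short of the 4-fold rule, at 383 and 493 CPM against 29.1 to 98.1, while Calcr, a more restricted osteoclast gene, was at most 0.387 CPM. Downward, Tspan2 was at 1.04 and 1.21 CPM against 11.2 to 70.9, and Slco3a1, an anion transporter, at 3.52 and 2.36 against 27.5 to 64.1.

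The tumour of mouse 1267 was the only 1 with more than trace counts of Y chromosome genes. Ddx3y was at 0.0574, 0.150, 85.9, 0.172, 0 and 0 CPM, and Eif2s3y was at 86.5 CPM in 1267 and at most 0.172 elsewhere. Xist, the long RNA that silences 1 X chromosome, was at 41.4, 554, 0.517, 604, 614 and 709 CPM. Its low level in tumour 1 of mouse 948, from a mouse whose other tumour had 554, goes with the low level of long transcripts in that library, and their relation was not tested.

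Apart from these sex-linked genes, 1267 was marked by Tbx2, a T-box repressor, at 0, 2.24, 187, 5.41, 7.53 and 6.21 CPM. Stfa1 (stefin A, a cysteine protease inhibitor of neutrophil precursors) was at 9.41, 1.65, 276, 1.504, 6.09 and 11.2 CPM. Thbs4 (thrombospondin 4) was at 356 CPM against 0.172 to 45.9. Cdkn2a, the locus of the cell cycle inhibitors p16 and p19ARF, was at 14.7, 5.54, 68.7, 1.72, 15.01 and 15.8 CPM. Alas1, the first enzyme of haem synthesis, was at 1356 CPM against 188 to 336, beside the high Mpo, which is a haem protein. The relation of Alas1 and Mpo was not tested. Alas1 had 218 counts in 1267 for every 1000 pan-leukocyte counts, 240 in 1268_1270 and 18.7 to 45.9 in the rest. Mpo had 1908 counts in 1267 and 26.4 in 1268_1270 on that scale. Csn2, the milk protein beta-casein, was at 211, 94.0, 520, 3.82, 11.1 and 9.18 CPM and thus high in 1267 and mouse 948.

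**Figure D5:**
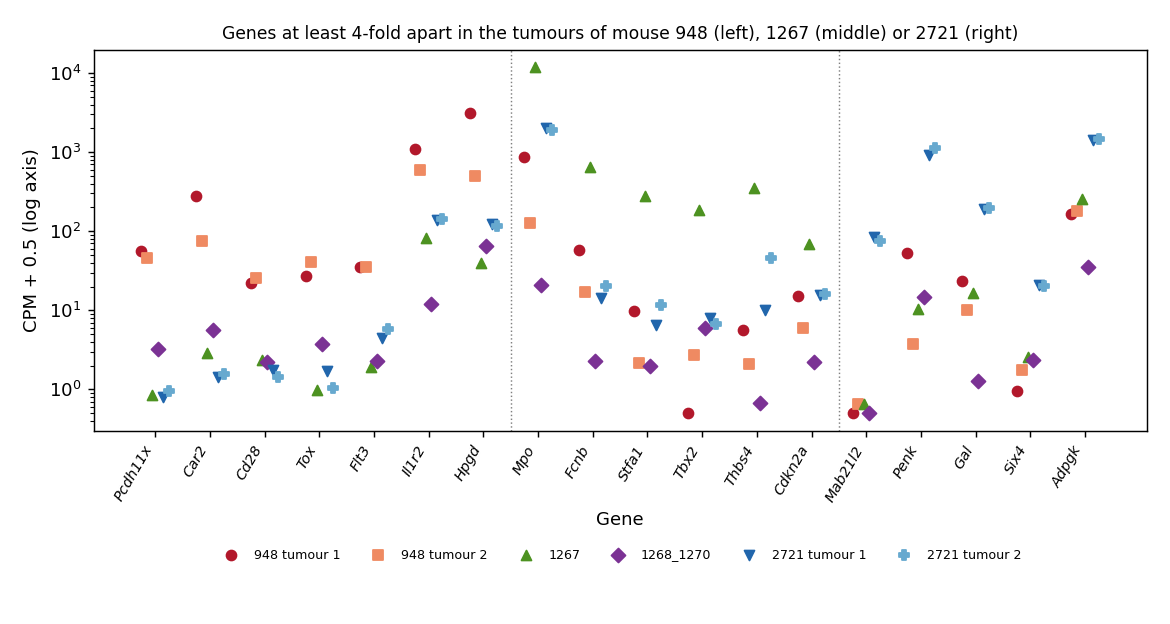
CPM + 0.5 on a log axis for 18 genes set apart upward in mouse 948 (left), 1267 (middle) or mouse 2721 (right), with 1 symbol per tumour. In the left and right groups both tumours of the mouse lie above the 4 tumours of the other mice, as for Pcdh11x (56.4 and 45.5 CPM) and Penk (921 and 1124 CPM).

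Downward in 1267, besides Xist, were Antxr2, a receptor of collagen VI and anthrax toxin, at 95.3, 86.98, 8.602, 83.6, 99.5 and 129 CPM, and Bnip3, a mitochondrial hypoxia gene, at 157, 320, 19.3, 416, 105 and 85.2 CPM. Retnla, a product of alternatively activated macrophages, was at 1.17 CPM in 1267 and 9.27 to 231 in the others.

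Within mouse 2721, whose tumours differed least, the genes furthest apart included muscle, macrophage, fat and antibody genes. Higher in tumour 2 were Tnnt3, Ttn (titin, the giant muscle spring), Atp2a1 (the calcium pump of fast muscle) and Des (desmin), by 6.72, 6.23, 4.15 and 3.79 on the log2 scale. Higher in tumour 1 were Igj, Cd5l, Cidec and Clec10a, by 6.61, 2.96, 2.43 and 1.82. Of the 15 tissue macrophage genes 14 were higher in tumour 1, with a median difference of 0.96, whereas the primary granule, mitosis and HOXA lists differed by a median of 0.02, -0.07 and 0.08.

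Within mouse 948 the widest gaps were of both kinds. Higher in tumour 1 were muscle and fat genes, with Atp2a1 at 697 against 0.748 CPM and Adipoq at 46.9 against 0. Higher in tumour 2 were Pde1b (a cyclic nucleotide phosphodiesterase, 0.688 against 120.5 CPM), Thbs1, Arg1, Saa3 (an acute phase protein, 3.04 against 232 CPM) and the long RNAs Neat1 (8.95 against 1031 CPM) and Kmt2d (5.56 against 279 CPM). Arg1 and Saa3 are short transcripts, of 1477 and 2606 bases, and Neat1 and Kmt2d are long, of 20771 and 19830 bases. Pde1b, Neat1 and Kmt2d were lowest in tumour 1 of all 6 tumours, and tumour 2 lay within the range of the other 4, whereas Arg1 and Saa3 were higher in tumour 2 than in any other tumour.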

How the data were processed

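Myeloid sarcomas and whole marrow were measured by poly(A) RNA-seq, and 6 of 16 libraries are described here. The authors deposited 1 table of raw whole-number counts per gene symbol. Per the submitters' processing notes, the tools were STAR, DESeq and DESeq2 and the build mm9, with no roles stated. The annotation behind the counts is not given in the sources used here, nor is the strand setting. All columns matched a sample (0 left over), and 0 rows lacked a name. Symbols can share reads: 58 had counts identical to another symbol.

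Counts were filtered (filterByExpr), scaled by TMM and fitted by mouse with edgeR 4.0.16 (robust quasi-likelihood test, 2 residual degrees of freedom, adjusted p under 0.05) in R 4.3.3, after a test on simulated data. Alternatives used DESeq2 1.42.0 and limma 3.58.1. List means average log2 CPM, computed with 2 as the prior count. Lengths come from a GENCODE annotation of a later build, matched by symbol for 98.8% of tested genes, and abundance ranks leave out transcripts under 300 bases. Coordinates are not printed, since no annotation of the files' build was used.

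Members, gene lists and tests were chosen with earlier results of these data known. Named genes were the cohesin, Npm1 and sex genes, the most abundant and the steadiest genes, the first 3 members of each list and those with the largest F, called genes by width of gap, and the largest differences within a mouse. Only part of these is printed, and further list members, the genes set apart by mouse, Penk and Csn2 among them, were picked after their values were seen. Depth limits low levels: 3 counts correspond to 0.0817 to 0.224 CPM, counting error only. Nothing in the labels says whether tumours of 1 mouse are separate clones. The p-values set differences between these mice against the spread within the tumour pairs of mice 948 and 2721. The tumours of 1 mouse were not 1 library deposited more than once (mean chi-square per gene 17.8 in mouse 2721, 474 in mouse 948). Some genes that met these rules are not reported here.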

Additional observations from a re-analysis of the deposited data

Results flagged for a closer look

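For 54 gene list means, 6 library measures and 5 genotype genes, the 6 tumours were checked for a value far from the others (a gap to the nearest tumour above Dixon's critical share of the whole range). Of the 65 sets 12 were flagged, 7 of them for 1268_1270. Chance flags about 1 in 20 sets of independent values. The sets here share the same 6 libraries, with same-mouse pairs among them, and some measure nearly the same thing. The number of flags therefore cannot be compared with that rate.

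In 1268_1270 the flagged list means were 5.32 for pan-leukocyte genes, 10.35 for adipocyte genes, 8.08 for lipid synthesis, 5.06 for secondary granules, 2.47 for HOXC and HOXD genes and 5.02 for cohesin genes, all as log2 CPM. Its share of pan-leukocyte counts, 0.0787%, was also flagged. In tumour 2 of mouse 948 the inflammatory list (5.75) and the suppressive list of checkpoint ligands and arginine-using enzymes (5.07) lay far above the other 5 on the CPM scale. With pan-leukocyte scaling the suppressive list was highest in 1268_1270 (5.94), against 4.37 in tumour 2 of mouse 948. Tumour 1 of mouse 948 had a TMM factor of 0.68 and 16.4% of its counts in its 10 highest genes. The sex list was flagged in 1267, at 4.21.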

How the results depend on the processing

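The number of genes called between the 4 mice (55) depended on nearly every setting. It was 63 with RLE scaling, 8455 with pan-leukocyte scaling, 2812 with DESeq2, 0 with limma-voom (3347 at an unadjusted p under 0.05), 1209 without a count filter, 0 of 10781 genes with 1 CPM in every library (2046 unadjusted), 426 with transcript-length offsets, 187 without robust estimation and 0 to 11071 when 1 tumour was left out. In every setting with calls that kept both 1267 and 1268_1270, the 55 genes were among them. Without both 948 tumour 1 and 1268_1270, a setting added after seeing the data, it was 8025, 10 of them among the 55.

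Between mice 948 and 2721 (0 higher, 0 lower) the calls were 291 higher and 154 lower with DESeq2, 5 and 3 without a count filter, 0 to 4058 higher and 0 to 3928 lower when 1 tumour was left out, and 2960 and 3532 without both unlike libraries. The other settings gave 0 except the replicate block: with tumour number as a block the calls were 80 and 81, and 1836 between the mice. Tumour numbers did not pair the mice, since the correlation of tumour 1 minus tumour 2 between them was -0.01.

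Genes at a fixed level in all 6 tumours (623 at 100 CPM) numbered 1737 at 50 CPM and 175 at 200 CPM. Leaving out libraries, chosen after seeing the data, gave 957 without 1268_1270, 712 without 948 tumour 1 and 1167 without both. Of the 15 most abundant genes 10 stayed without division by length. Of 324 list means, 145 moved by more than the SD of same-mouse pairs with pan-leukocyte scaling and 28 with a prior count of 0.5. That scaling also changed the genes set apart upward to 0, 17 and 11 in mice 948, 1267 and 2721.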

Other observations

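Mice 1267 and 2721 also gave a marrow library, among 9 SMC3+/- marrow libraries, 3 of which are short of long transcripts. Of the 20 genes set apart upward in the tumour of mouse 1267, 6 were also highest in its own marrow, where 9.09% of genes at 20 CPM or more in a tumour were highest. The 20 genes include Eif2s3y, Ddx3y and Uty of the Y chromosome, and Uty is among the 6. Tbx2 was at 125 CPM in that marrow against 0 to 31.6 in the other 8, Cdkn2a at 91.5 against 0 to 31.8, Fcnb at 1673 against 38.6 to 711, and Mpo at 19930 against 727 to 9759. Of the 25 genes set apart in the tumours of mouse 2721, 0 were highest in its own marrow (10.9% of all). Penk was at 274 CPM there against a median of 7.07 and a highest value of 411, Gal at 22.9 against 3.002 and 95.2, and Mab21l2 at 9.504 against 0.448 and 58.3.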
